A study of Mus musculus with 6 samples.

Results

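The genes described here are 9 mouse genes for proteins that the liver releases into blood plasma, namely the fibrinogen chain genes Fga, Fgb and Fgg, the kininogen genes Kng1 and Kng2, and the acute-phase genes Hp, Lcn2, Lrg1 and Serpina3n. They were matched by symbol among 55414 gene identifiers, and each matched 1 identifier. They were chosen with their difference in this comparison already known, so their levels and fold changes are given as a description, with no test. The series sequenced RNA of AY-mICC cells, a mouse line used as a model of intrahepatic cholangiocarcinoma, the cancer of bile ducts inside the liver. Of the 6 libraries, 3 came from cells whose genotype is given as Copa knockdown (shCopa) and 3 from cells whose genotype is given as control (shCon). The prefix sh in the titles is the usual one for a short hairpin RNA, but the hairpins, their number and the way they were delivered are not given in the labels. Both groups are the same line in the same serum-containing medium, with no drug or cytokine listed, and the labels do not say whether replicates were separate cultures, so p-values below measure only the spread between these samples.

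Fibrinogen is a plasma protein built from pairs of the alpha, beta and gamma chains, which join in the endoplasmic reticulum before the protein is released, and which thrombin turns into the fibrin of a clot. Kininogens are the plasma precursors from which kallikreins free bradykinin, a short peptide that widens and loosens blood vessels. Acute-phase genes are switched in hepatocytes by inflammation, with interleukin-6 (IL-6), acting through STAT3, and interleukin-1, acting through NF-kB and C/EBP factors, as the main signals. The product of Copa is a coat protein of COPI vesicles, which return proteins to the endoplasmic reticulum from the Golgi apparatus.

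Library totals of estimated counts ran from 19634938 to 22824646 in shCopa and from 22282624 to 24546204 in shCon. Copa stood at 186, 182 and 187 CPM, the count scaled to library size, in shCopa libraries 1 to 3, against 420, 517 and 527 CPM in shCon libraries 1 to 3. Across genes, Pearson's r of log2 CPM was 0.9888 to 0.9907 between shCopa libraries, 0.9898 between shCon 2 and shCon 3, and 0.9735 and 0.9719 between shCon 1 and these, so shCon 1 stood apart from its group. Of 18 cholangiocyte markers, 14 averaged at least 1 CPM, among them Krt7, Krt19 and Sox9, while Epcam, Onecut1, Cldn4 and Cldn7 stayed under it. Their summed level was 9306 to 9804 CPM in shCopa and 12571 to 15739 CPM in shCon. Spp1 held the largest part (4614 ± 230 CPM in shCopa, 6941 ± 1245 CPM in shCon, SD, n = 3 each). Of the tested cholangiocyte markers, 7 were lower past the threshold given below, 1 was higher and 7 did not pass. Krt7 was lower, and Krt19 and Sox9 did not pass. Of all tested genes, 18.4% were lower past it. Of 17 hepatocyte markers, 4 averaged at least 1 CPM, with a summed level of 189 to 204 CPM in shCopa and 204 to 227 CPM in shCon, and Cyp3a11, Cyp2c29, G6pc and Ahsg had no count in any library. Most of that sum was Ass1 (163 ± 6.97 CPM in shCopa, 197 ± 11.1 CPM in shCon, SD, n = 3 each), while 2 hepatocyte markers, Alb and Hnf4a, rose. Of the tested fibroblast markers, Acta2 was higher past the threshold, Pdgfrb was lower and 3 did not pass. Of 10 fibroblast markers 3 averaged at least 1 CPM (summed level 171 to 185 CPM in shCopa, 185 to 224 CPM in shCon), and of 9 lymphoid markers 0 did (0.152 to 0.354 CPM in shCopa, 0.0465 to 0.164 CPM in shCon). Of 9 endothelial markers 0 did, but their sum was 2.7 to 4.75 CPM in shCopa and 0.411 to 0.601 CPM in shCon. The 2 endothelial markers higher past the threshold were Kdr and Vwf, of which Vwf lost its call without shCopa 1, shCopa 3 or shCon 3. Kdr, Vwf and Acta2 passed the low-count filter only through their shCopa libraries, so their calls are a description only. The part of the marker levels in the results below was not tested.

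In all, 7 of the 9 genes were lower in shCopa past the threshold used for all genes (an adjusted p under 0.05 in edgeR's quasi-likelihood fit), 0 were higher, and Lcn2 and Serpina3n were not past it. Of the 14808 genes tested, 36.5% passed that threshold and 18.4% were lower past it, and nothing is read from the members' count, since this contrast chose them. For 8 genes every shCopa library lay below every shCon library, as did 26.9% of all tested genes, and for 6 the fitted log2 fold change (shCopa minus shCon) was under -3, as in 0.29% of all tested genes. The members' median log2 fold change was -3.71, against -0.01 over all tested genes. All 9 passed the filter on low counts, but Fga, Fgg, Kng1 and Lrg1, with no more than 10 counts in any shCopa library, passed it only through their shCon libraries. In bulk RNA, fewer cells that transcribe a gene and less RNA per cell cannot be told apart.

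**Figure D1:**
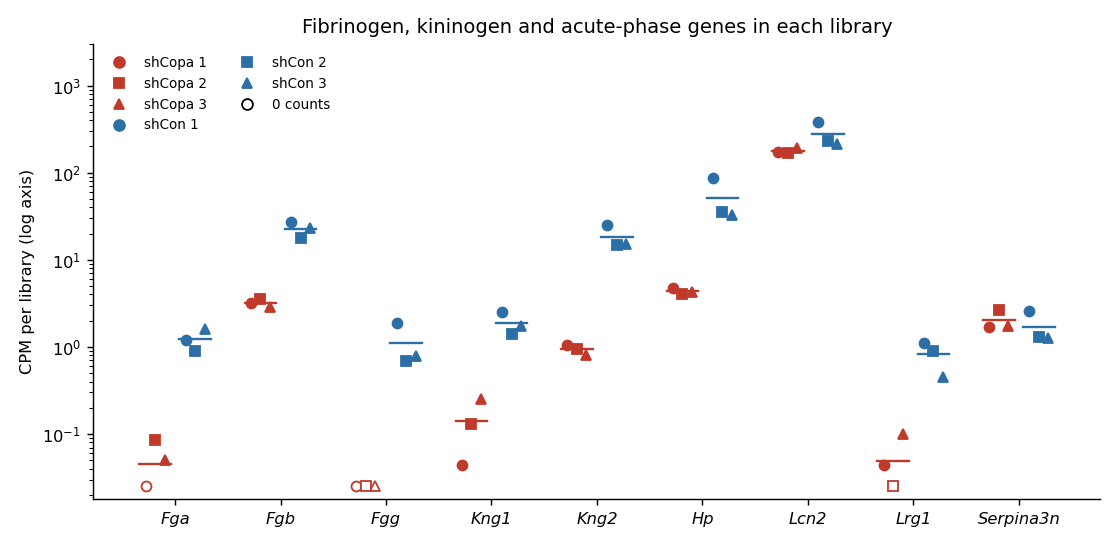
Level of each of the 9 genes in each library, as CPM on a log axis, with shCopa in red left of shCon in blue. Bars are group means over 3 libraries, and open symbols at the foot of the axis are libraries with 0 counts; the groups overlap only in Serpina3n.

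The fibrinogen genes were near or at the limit of detection in shCopa apart from Fgb, the beta chain gene. Fgb (ENSMUSG00000033831) stood at 3.23, 3.59 and 2.88 CPM in the shCopa libraries, against 27.3, 18 and 23.3 CPM in the shCon libraries. Its mean was 3.23 ± 0.352 CPM in shCopa and 22.8 ± 4.65 CPM in shCon (SD, n = 3 each), and its fitted log2 fold change of -2.82 ± 0.19 (SE) is 14.2% of the shCon level. The highest shCopa value lay well under the lowest shCon value.

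Fgg (ENSMUSG00000033860), the gamma chain gene, had 0 counts in every shCopa library, against 40, 16 and 19 counts in the shCon libraries. These shCon counts are 1.86, 0.687 and 0.781 CPM, so shCon 1 held more of the transcript than its 2 partners together. With a floor of 3 counts over the 3 shCopa libraries, which is 0.0458 CPM, Fgg was 23.7-fold lower in shCopa or more. That bound takes the shCon counts as exact. The exact 95% counting interval, which does not, reaches up to 5.32% of the shCon level, a smaller fold. Floors and intervals given here cover counting error only, and every floor takes the counts of the other group as exact. Fga (ENSMUSG00000028001), the alpha chain gene, had 0, 2 and 1 counts in shCopa, against 26, 21 and 39 counts in shCon. The 3 counts of shCopa against 86 of shCon put Fga at 3.68% of the shCon level, with an exact 95% counting interval from 0.745% to 11.1%. The fitted log2 fold change, -4.60 with all libraries, was -5.41 without shCopa 2. No shCopa library held as many as the 3 counts of Fga that a count of 0 still allows.

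Per length of transcript, the chains were not at equal levels in the control cells, although the protein holds them in equal numbers. In shCon, Fgb averaged 5.99 ± 1.22 CPM per kilobase of its longest coding transcript, Fgg 0.637 ± 0.374 and Fga 0.478 ± 0.136 (SD, n = 3). Fgb was thus 12.5 times Fga and 9.41 times Fgg on this scale, and in each shCon library at least 9.85 times Fga. The size of the gap rests on the length used, since the ratio of Fgb to Fga was 30.3 per kilobase of coding sequence, a choice added after the data were seen. In shCopa, Fgb averaged 0.849 ± 0.0925 CPM per kilobase and Fga 0.0177 ± 0.0168 (SD, n = 3), while Fgg had no count. Fgg and Fga did not differ beyond their spread in shCon.

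These 3 genes lie side by side on chromosome 3, with Fga between the others. The next coding gene beside Fgb is Plrg1, a splicing factor gene, which stood at 25.3, 26.6 and 27.6 CPM in shCopa and at 30.2, 25.1 and 26.1 CPM in shCon. Its log2 fold change was -0.03 ± 0.11 (edgeR adjusted p = 0.827). Lrat, the next coding gene beyond Fgg, had 0 counts in all 6 libraries. Gm30097, an annotated lncRNA whose exons overlap Fgg on the opposite strand, had 0 counts as well, and no other member has exons that overlap another gene. None of the 50-base windows of the Fga and Fgb transcripts occurs in another gene's transcript, and 3.9% of those of Fgg do, shared with Gm30097.

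The stretches from 250 bases before to 50 bases after the annotated start are printed for the 3 neighbouring chain genes because their transcripts were low together in shCopa, and because these genes are textbook targets of IL-6. They are RefSeq windows on GRCm38.p6, written 5′ to 3′ on the strand of the gene, at chr3:83007474-83007773 (plus strand) for Fgg, chr3:83025903-83026202 (plus strand) for Fga and chr3:83049814-83050113 (minus strand) for Fgb. Capitals mark a match to CTGGGAA, the core of the IL-6 response element known from acute-phase promoters.
Fgg: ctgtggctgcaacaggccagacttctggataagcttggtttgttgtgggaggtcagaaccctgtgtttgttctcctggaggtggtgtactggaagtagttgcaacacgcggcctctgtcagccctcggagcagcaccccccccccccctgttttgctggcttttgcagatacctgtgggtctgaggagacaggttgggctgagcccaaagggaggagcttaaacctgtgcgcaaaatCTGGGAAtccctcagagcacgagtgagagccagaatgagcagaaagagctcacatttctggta
Fga: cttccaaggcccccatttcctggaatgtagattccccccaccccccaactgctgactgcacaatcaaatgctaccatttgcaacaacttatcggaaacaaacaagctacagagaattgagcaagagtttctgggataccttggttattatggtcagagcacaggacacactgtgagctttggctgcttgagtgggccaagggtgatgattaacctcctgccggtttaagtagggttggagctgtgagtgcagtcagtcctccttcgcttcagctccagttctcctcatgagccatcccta
Fgb: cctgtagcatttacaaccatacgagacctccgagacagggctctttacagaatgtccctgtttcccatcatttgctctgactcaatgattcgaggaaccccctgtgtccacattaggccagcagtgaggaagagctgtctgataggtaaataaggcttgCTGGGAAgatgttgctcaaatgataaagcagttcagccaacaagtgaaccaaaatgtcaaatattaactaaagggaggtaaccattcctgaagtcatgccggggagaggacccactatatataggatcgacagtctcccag
Positions count from 1 at the start base and from -1 at the base before it. The match begins at position -13 in Fgg and at -91 in Fgb, and there is none in the Fga window on either strand.

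Of the 9 genes, 7 have a window in the RefSeq table, and CTGGGAA occurs on either strand in 4 of these, Fgg, Fgb, Kng2 and Lrg1, against 11.1% of all 32851 windows. The C/EBP motif TTGCNNAA was found in 4 of 7 (Lcn2, Fga, Fgb and Kng2), against 10.8% of all windows. In Fgb it begins at position -80, next to but not overlapping CTGGGAA, and in Fga at -135. The STAT palindrome TTCNNNGAA occurs in Fga (from -234) and Fgb (from -162), against 8.3% of all windows. The TATA box letters TATAAA were found in 1 of 7 windows, against 13.6%. That match, in Lrg1, begins at position 12, after the annotated start. The consensus of NF-kB was found in 0 of 7 windows, against 1.47%. Both strands were searched for each motif, and the motifs were chosen with the members known. A match is a description of the sequence and says nothing about binding in these cells.

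The kininogen genes were both lower in shCopa. Kng2 (ENSMUSG00000060459) stood at 1.06, 0.951 and 0.809 CPM in shCopa, against 25.4, 14.9 and 15.2 CPM in shCon. Its mean was 0.941 ± 0.127 CPM in shCopa and 18.5 ± 5.97 CPM in shCon (SD, n = 3 each), and its fitted log2 fold change of -4.28 ± 0.29 (SE) is 5.14% of the shCon level. Of the 9 genes, Kng2 had the largest fall among those with at least 10 counts in every library. Kng1 (ENSMUSG00000022875) had 1, 3 and 5 counts in shCopa, against 54, 33 and 42 counts in shCon. In CPM this is 0.0443, 0.13 and 0.253 in shCopa and 2.51, 1.42 and 1.73 in shCon, again with no overlap. Its fitted log2 fold change was -3.71 ± 0.52 (SE), or -4.34 without shCopa 3, and its summed counts put it at 7.37% of the shCon level, with a 95% counting interval from 3.29% to 14.4%.

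Kng1 and Kng2 are neighbours on chromosome 16 and close copies of each other, so the division of reads between them is uncertain. Their longest coding transcripts were identical at 93.4% of 2199 aligned bases, and 18% of the 50-base windows of Kng1 and 18.2% of those of Kng2 occur in the other gene. With the counts of both added up as 1 feature, the log2 fold change was -4.22. Per kilobase of transcript, Kng2 averaged 8.05 ± 2.6 CPM and Kng1 0.835 ± 0.25 CPM in shCon (SD, n = 3), with a ratio between 8.66 and 10.3 in each shCon library. Eif4a2, the next coding gene beyond Kng1 and named for that place only, did not pass (0.14 ± 0.10 on the log2 scale, edgeR adjusted p = 0.319). Hrg, the neighbour of Kng2 and the gene of another liver plasma protein, had 0 counts in all libraries.

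The RefSeq window of Kng2 (GRCm38.p6, chr16:23029052-23029351, minus strand) is printed because its CTGGGAA, in capitals, lies on the other side of the start, from position 18, in transcribed sequence. A C/EBP match on the opposite strand begins at -112.
Kng2: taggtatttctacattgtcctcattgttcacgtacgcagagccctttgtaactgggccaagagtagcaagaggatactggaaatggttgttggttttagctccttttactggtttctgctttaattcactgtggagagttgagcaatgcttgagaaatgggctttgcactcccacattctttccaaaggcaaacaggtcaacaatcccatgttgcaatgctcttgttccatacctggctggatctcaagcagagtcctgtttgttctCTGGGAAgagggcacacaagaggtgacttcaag

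Hp (ENSMUSG00000031722), which encodes haptoglobin, the plasma protein that binds free haemoglobin, was, per length of transcript, the highest in shCon of the 7 genes that were lower past the threshold. It stood at 4.74, 4.02 and 4.25 CPM in shCopa, against 87.3, 35.5 and 32.5 CPM in shCon. The shCopa libraries lay close together, and shCon 1 stood far above the other shCon libraries. The mean was 4.33 ± 0.366 CPM in shCopa and 51.8 ± 30.8 CPM in shCon (SD, n = 3 each), and the log2 fold change was -3.57 ± 0.42 (SE), or 8.39% of the shCon level. Without shCon 1, which moves the fitted fold by more than 1.5 times, the log2 fold change was -2.97. The coding genes beside Hp, Txnl4b and, named for its place only, Dhodh, had log2 fold changes of 0.10 ± 0.13 (edgeR adjusted p = 0.601) and -0.60 ± 0.17 (edgeR adjusted p = 0.0289).

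Lrg1 (ENSMUSG00000037095) encodes leucine-rich alpha-2-glycoprotein, a secreted protein that in mouse vessels acts on TGF-beta signalling through endoglin. It had 1, 0 and 2 counts in shCopa, against 24, 21 and 11 counts in shCon. The 3 counts of shCopa against 56 of shCon put Lrg1 at 5.66% of the shCon level, with a 95% counting interval from 1.13% to 17.4%. The fitted log2 fold change, -4.00 with all libraries, was -4.92 without shCopa 3, and without shCon 2 Lrg1 did not pass the low-count filter. Even the highest shCon value, 1.11 CPM, was low, and the groups did not overlap. Its neighbour Sema6b, a semaphorin gene, did not pass (-0.43 ± 0.42 on the log2 scale, edgeR adjusted p = 0.459), and Plin5, on the other side, had no more than 4 counts in any library.

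Lcn2 (ENSMUSG00000026822) encodes lipocalin 2, which keeps iron from bacteria by binding their siderophores, and per length of transcript it was the highest of the 9 genes in both groups. It stood at 172, 167 and 190 CPM in shCopa, against 383, 228 and 215 CPM in shCon. Every shCopa value was below every shCon value, but shCon 1 was far above its partners. The mean was 176 ± 11.6 CPM in shCopa and 275 ± 93.7 CPM in shCon (SD, n = 3 each), with a log2 fold change of -0.64 ± 0.22 (SE) that was not past the threshold. Without shCon 1 it was -0.33 and past the threshold, and it also passed without shCon 2 (-0.77) or shCon 3 (-0.80), by DESeq2 and with offsets for transcript length and GC content. Lcn2 is also known as a gene of neutrophils. Of the 17 myeloid markers, Cd68, Csf1r, Lyz2 and Cd14 averaged at least 1 CPM, Tyrobp, S100a8, Elane and Camp had no count in any library, and Ltf had 2, 1 and 4 counts in shCopa and 8, 8 and 6 in shCon. The list summed to 157 to 170 CPM in shCopa and 277 to 287 CPM in shCon, but 2 of its genes rose and 2 fell. Lyz2 (8.21 ± 0.225 CPM in shCopa, 1.46 ± 0.333 CPM in shCon, SD, n = 3 each) and Ptprc (71 counts in shCopa, 2 in shCon) were higher, and Csf1r (87.9 ± 1.1 CPM in shCopa, 165 ± 21.2 CPM in shCon) and Cd14 (50.3 ± 4.82 CPM in shCopa, 102 ± 20.7 CPM in shCon) were lower. Ptprc passed the low-count filter only through its shCopa libraries, so its call is a description only. The part of the myeloid markers in the level of Lcn2 was not tested. Beside Lcn2, 1110008P14Rik fell (log2 fold change -1.33 ± 0.26, edgeR adjusted p = 0.00617), and Ptges2, an enzyme gene of prostaglandin synthesis, did not pass (-0.28 ± 0.30, adjusted p = 0.507).

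Serpina3n (ENSMUSG00000021091), a mouse protease inhibitor of granzyme B and cathepsin G, was the only member whose fitted level was not lower in shCopa. Its fitted change was smaller than the SE, so no direction is read from it. Serpina3n stood at 1.68, 2.64 and 1.72 CPM in shCopa, against 2.55, 1.29 and 1.27 CPM in shCon. The groups overlapped, since shCon 1 lay within the range of shCopa. The mean was 2.01 ± 0.541 CPM in shCopa and 1.71 ± 0.736 CPM in shCon (SD, n = 3 each), with a log2 fold change of 0.25 ± 0.36 (SE), which was 0.65 without shCon 1 and 0.00 without shCopa 2. Of the 10 related genes of the Serpina3 cluster on chromosome 12, 9 were too low to test, with at most 12 counts in any library, and Serpina3g, the other, did not pass. Of the 50-base windows of Serpina3n, 6.9% occur in another gene, so part of its reads may be shared.

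Lcn2 made up 94.1%, 93.6% and 95% of the summed CPM of the 9 genes in shCopa libraries 1 to 3, against 72%, 75.6% and 73.7% in shCon libraries 1 to 3, as a share of scaled counts and not of molecules. The other 8 genes summed to 10.8, 11.4 and 10.1 CPM in shCopa, against 149, 73.5 and 76.8 CPM in shCon. The shCopa libraries were close to one another in this sum, and shCon 1 held nearly as much as its 2 partners together. Per kilobase of transcript, the order in shCon was Lcn2 (301 ± 102 CPM per kilobase), Hp (38.5 ± 22.9), Kng2 (8.05 ± 2.6), Fgb (5.99 ± 1.22), Kng1 (0.835 ± 0.25), Serpina3n (0.826 ± 0.356), Fgg (0.637 ± 0.374), Lrg1 (0.584 ± 0.24) and Fga (0.478 ± 0.136; SD, n = 3). For Kng2 and Fgb, and for each pair of neighbours from Kng1 down to Fga, the ranges of mean ± SD overlapped. Within each shCon library, though, Kng2 was above Fgb (11.1, 6.48 and 6.63 against 7.16, 4.72 and 6.1 CPM per kilobase). Serpina3n was likewise above Fgg in each (1.24, 0.624 and 0.617 against 1.07, 0.395 and 0.448). In shCopa the order began with Lcn2 (193 ± 12.7 CPM per kilobase) and Hp (3.22 ± 0.272), followed by Serpina3n (0.975 ± 0.262), Fgb (0.849 ± 0.0925) and Kng2 (0.41 ± 0.0554), of which Serpina3n and Fgb did not differ beyond their spread. Kng1, Lrg1, Fga and Fgg stood at 0.0631, 0.0344, 0.0177 and 0 CPM per kilobase in shCopa, too low to order.

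**Figure D2:**
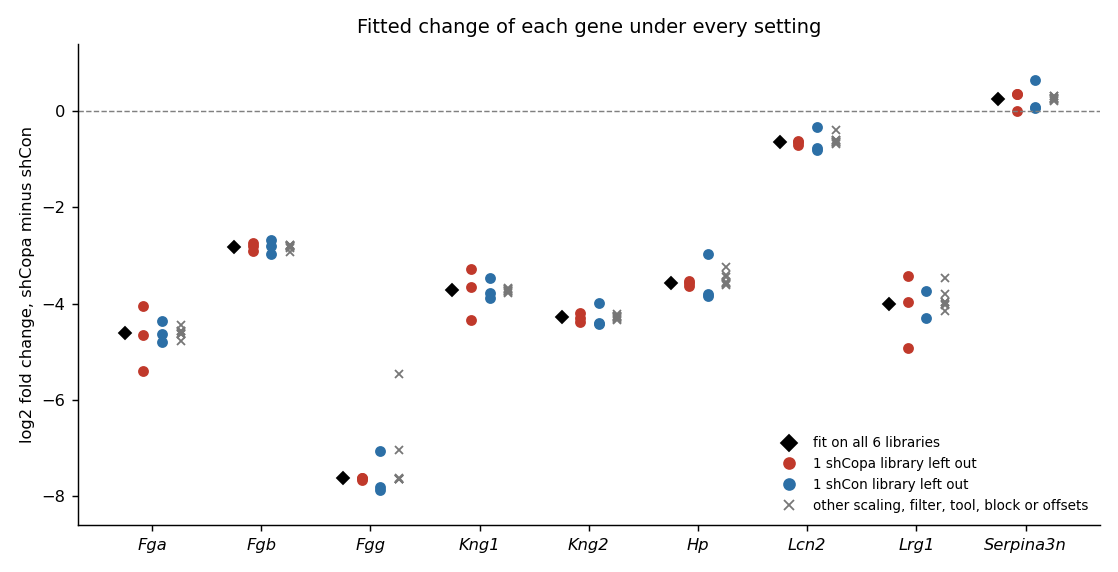
Fitted log2 fold change (shCopa minus shCon) of each gene over all 6 libraries (diamonds), with 1 shCopa (red) or 1 shCon (blue) library left out, and under other processing settings (crosses). The fitted values of Fga, Fgg and Lrg1 depend on the small count that edgeR adds; 8 genes stay below 0 throughout, and Serpina3n lies between 0.00 and 0.65.

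The library shCon 1 was above the mean of shCon 2 and shCon 3 for 8 of the 9 genes. The ratio was 2.57 for Hp, 2.53 for Fgg, 1.99 for Serpina3n, 1.73 for Lcn2, 1.69 for Kng2, 1.65 for Lrg1, 1.6 for Kng1, 1.32 for Fgb and 0.965 for Fga. Over all tested genes its median was 0.992, and 13.7% of genes reached 1.5. Of the 4 C/EBP genes on the liver factor list, whose factors act on acute-phase promoters, the ratio was 7.71 for Cebpb, 2.53 for Cebpd and 2.19 for Cebpa, but 1.02 for Cebpg. Other acute-phase genes did not share the pattern in full, since the ratio was 1.88 for Mt1 but 0.846 for C3 and 0.869 for Cp. Whether the C/EBP levels and those of the 9 genes are linked was not tested.

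**Figure D3:**
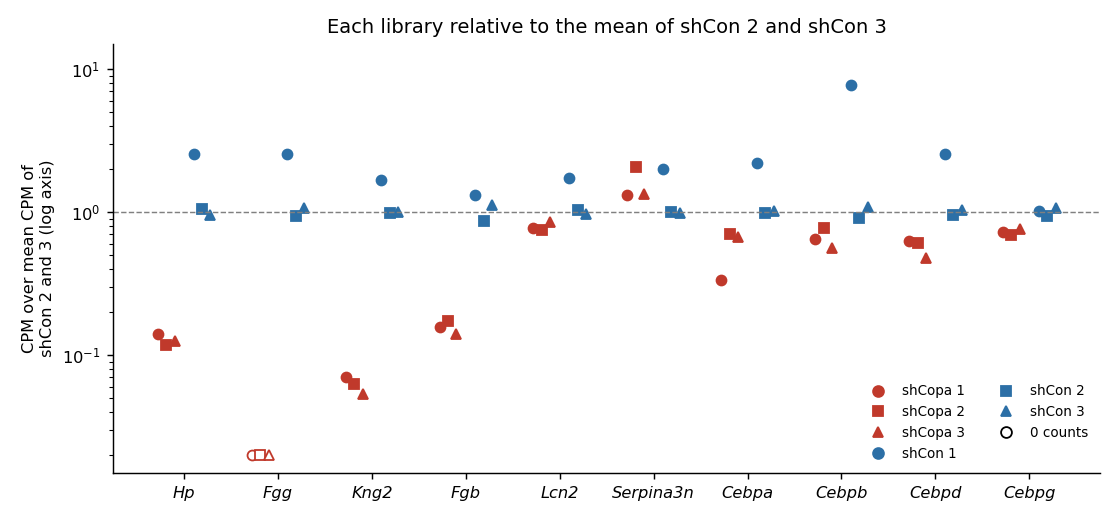
Level of 6 of the 9 genes and of 4 C/EBP genes in each library, divided by the mean of shCon 2 and shCon 3, on a log axis with shCopa left of shCon. The library shCon 1 lies furthest above the line at 1 for Cebpb (7.71) and next to it for Cebpg (1.02), and Fgg has 0 counts in shCopa (open symbols at the foot).

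By the smallest root-mean-square difference of centred log2 CPM over the 6 libraries, with 9589 or 9590 genes of at least 10 CPM to choose from, the nearest gene to Fgg was Hp (0.16). The nearest to Hp was Imp3 (0.27), a gene of ribosomal RNA processing, which stood at 3.23, 2.07 and 2.43 CPM in shCopa and at 54.8, 13.5 and 17.3 CPM in shCon. The nearest to Kng2 was Inmt (0.19), a methyltransferase gene, with 1.89 ± 0.368 CPM in shCopa and 40.5 ± 17.6 CPM in shCon (SD, n = 3 each). Foxc1 (0.10), a forkhead transcription factor gene, was nearest to Fgb, with 11.9 ± 1.62 CPM in shCopa and 82.5 ± 20 CPM in shCon (SD, n = 3 each). Atraid and Mpdu1 (0.04 each) were nearest to Lcn2, and Ddx28 (0.15) to Serpina3n. Sprr1a was nearest to Fga and Kng1 (0.41 each) and Prr15l to Lrg1 (0.42). For Fga, Fgg, Kng1 and Lrg1, and most of all for Fgg with its 0 counts, the log2 CPM in shCopa is set largely by the prior count of 2, so these distances, that of Fgg to Hp included, depend on that choice. With 6 libraries in 2 groups, these distances are a description only.

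Of 31 other coagulation genes, 13 had enough counts to test, and of these 3 rose, 3 fell and 7 did not pass, with a median log2 fold change of 0.23. Of all tested genes 18.2% rose and 18.4% fell. Procr, the endothelial protein C receptor, rose (18.2 ± 1.15 CPM in shCopa, 3.77 ± 1.06 CPM in shCon, SD, n = 3 each; log2 fold change 2.27 ± 0.21, edgeR adjusted p = 0.000266), as did the summed endothelial markers given above, whose part in it was not tested. F5, coagulation factor V, fell (-1.12 ± 0.17, adjusted p = 0.00231), as did Pros1, protein S (-0.78 ± 0.09, adjusted p = 0.000546). Serpina10, an inhibitor of factor X, rose (1.24 ± 0.30, adjusted p = 0.014), a call that was lost without shCopa 2 (1.14) or shCopa 3 (1.20). F2, the gene of prothrombin, the precursor of the enzyme that cuts fibrinogen, had 0, 1 and 0 counts in shCopa and 0, 2 and 0 in shCon. With all libraries, 6 of 13 tested genes of this list passed. Without shCopa 3 it was 3 of 13, and without shCon 1 it was 11 of 14. Over all tested genes, 5412 of 14808 passed with all libraries, 3531 of 15215 without shCopa 3 and 8453 of 15329 without shCon 1.

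Among 16 genes of kinin release, kinin receptors and kinin breakdown, 8 were tested, of which 1 rose, 3 fell and 4 did not pass, with a median log2 fold change of -0.18. While the precursors were lower, the kinin receptor genes were higher in shCopa. Bdkrb2, the gene of the receptor for intact bradykinin, stood at 17, 18.2 and 21.8 CPM in shCopa, against 1.39, 2.66 and 2.34 CPM in shCon, with no overlap. It rose to 19 ± 2.53 CPM in shCopa, against 2.13 ± 0.66 CPM in shCon (SD, n = 3 each), or by 3.15 ± 0.24 on the log2 scale (edgeR adjusted p = 0.000141). Bdkrb1, the gene of the receptor for a clipped bradykinin, had 12, 15 and 6 counts in shCopa and 0 in every shCon library. It was below the filter and not tested, and was at least 11.6-fold higher in shCopa against a floor of 3 counts over the shCon libraries.

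Klkb1, plasma prekallikrein, whose enzyme cuts kininogen, was named after its values were seen. It had 5, 8 and 12 counts in shCopa and 0 in every shCon library, at least 8.8-fold higher, and was not tested. Of the kinin-degrading peptidase genes, Mme (neprilysin) fell (log2 fold change -0.86 ± 0.15, edgeR adjusted p = 0.00374) and so did Ece1 (-0.60 ± 0.12, adjusted p = 0.00803). Cpm, carboxypeptidase M, also fell (-0.86 ± 0.22, adjusted p = 0.0191), but not without any 1 of the shCopa libraries (-0.92 to -0.75) or without shCon 2 (-0.73) or shCon 3 (-0.79). With no low-count filter, or by DESeq2, 7 of 15 tested genes of the list passed, against 5388 and 5894 of 27503 over all genes.

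Of 31 other genes that rise in the acute phase, 12 were tested, of which 2 rose, 7 fell and 3 did not pass, with a median log2 fold change of -0.91. C4b, complement component 4, fell to 2.22 ± 0.451 CPM in shCopa, against 19.7 ± 2.01 CPM in shCon (SD, n = 3 each; log2 fold change -3.14 ± 0.18, edgeR adjusted p = 5.91e-05). Cp, ceruloplasmin, a copper-carrying oxidase, had 662 ± 31.4 CPM in shCopa and 1559 ± 129 CPM in shCon (SD, n = 3 each) and fell (-1.24 ± 0.10, adjusted p = 0.00015). Lbp, which binds bacterial lipopolysaccharide, fell (-1.31 ± 0.10, adjusted p = 0.000134), and so did Mt2, a metallothionein (-1.33 ± 0.18, adjusted p = 0.00144). Hpx, hemopexin, and Cfb, complement factor B, are the genes that rose. Hpx had 4.33 ± 0.904 CPM in shCopa and 1.53 ± 0.727 CPM in shCon (SD, n = 3 each). Cfb had 2.85 ± 0.355 CPM in shCopa and 1.23 ± 0.264 CPM in shCon (SD, n = 3 each). Saa3, a serum amyloid A gene, had 1, 4 and 4 counts in shCopa, against 34, 22 and 10 in shCon, and was not tested. Saa1, not tested either, had 0 counts in shCopa and 2, 0 and 1 in shCon. Serpina1b, also not tested and named after its values were seen, went the other way. It had 6, 14 and 9 counts in shCopa, against 1, 0 and 2 in shCon.

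Of 12 genes that fall in the acute phase, 6 were tested, of which 1 rose, 1 fell and 4 did not pass (median -0.03). Alb, serum albumin, rose to 22.7 ± 0.651 CPM in shCopa, against 9.9 ± 1.87 CPM in shCon (SD, n = 3 each; log2 fold change 1.20 ± 0.15, edgeR adjusted p = 0.00107). Trf, transferrin, which carries iron, fell (-1.06 ± 0.19, adjusted p = 0.0049). Albumin was higher in shCopa and the fibrinogen genes were lower, and the cause of this difference was not tested.

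**Figure D4:**
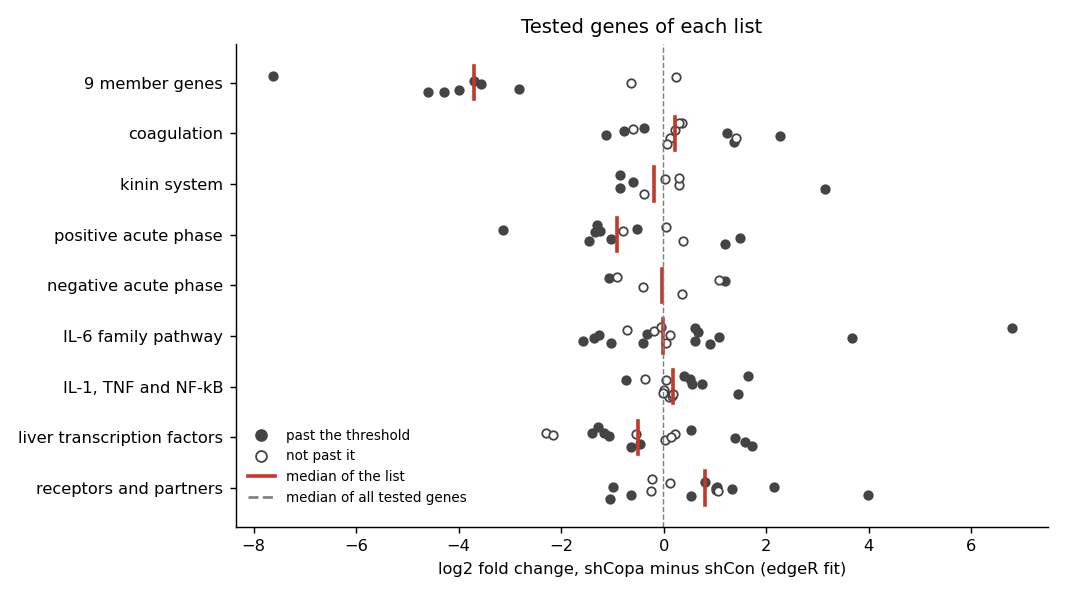
Fitted log2 fold change (shCopa minus shCon) of every tested gene of each list, filled where it passed the threshold, with the median of the list in red and of all tested genes as a dashed line. The 9 genes were chosen on this contrast and have a median of -3.71; the outermost points, Fgg among the 9 genes and Il6 in the IL-6 list, have 0 counts in 1 group, so their fitted values depend on the small count that edgeR adds.

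In the IL-6 family, the 4 ligand genes that passed were higher in shCopa, and 3 of the 4 receptor genes that passed were lower. Of 20 genes of ligands, receptors and signalling, 18 were tested, of which 7 rose, 6 fell and 5 did not pass, with a median log2 fold change of -0.00. Il6 had 15, 14 and 11 counts in shCopa and 0 in every shCon library, at least 14.1-fold higher in shCopa (edgeR adjusted p = 0.00262). Il6 and Il11 passed the low-count filter only through their shCopa libraries, so their calls are given as a description only. Il11 rose to 2.64 ± 0.439 CPM in shCopa, against 0.203 ± 0.0899 CPM in shCon (SD, n = 3 each; log2 fold change 3.67 ± 0.37, adjusted p = 0.000357). Lif, leukemia inhibitory factor, was higher as well (1.09 ± 0.09, adjusted p = 0.000175).

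Il6ra, the receptor chain that binds IL-6, fell to 2.86 ± 0.126 CPM in shCopa, against 8.6 ± 0.0225 CPM in shCon (SD, n = 3 each; log2 fold change -1.58 ± 0.14, edgeR adjusted p = 0.000219). Osmr, the oncostatin M receptor, fell (-1.35 ± 0.12, adjusted p = 0.00021), while Il6st, the signalling chain gp130 shared by the family, rose (0.68 ± 0.20, adjusted p = 0.0323). Stat3, the factor that carries the signal to acute-phase promoters, fell (-0.32 ± 0.09, adjusted p = 0.0249). The calls of Il6st and Stat3 were lost without any 1 of the shCopa libraries (0.65 to 0.71 and -0.33 to -0.30), and that of Stat3 also without shCon 2 (-0.31) or shCon 3 (-0.29). Socs3, a feedback inhibitor and a direct target of STAT3, stood at 18.2, 18.6 and 18.1 CPM in shCopa, against 42.5, 34.8 and 34.3 CPM in shCon. It fell, with a log2 fold change of -1.02 ± 0.12 (edgeR adjusted p = 0.000587).

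**Figure D5:**
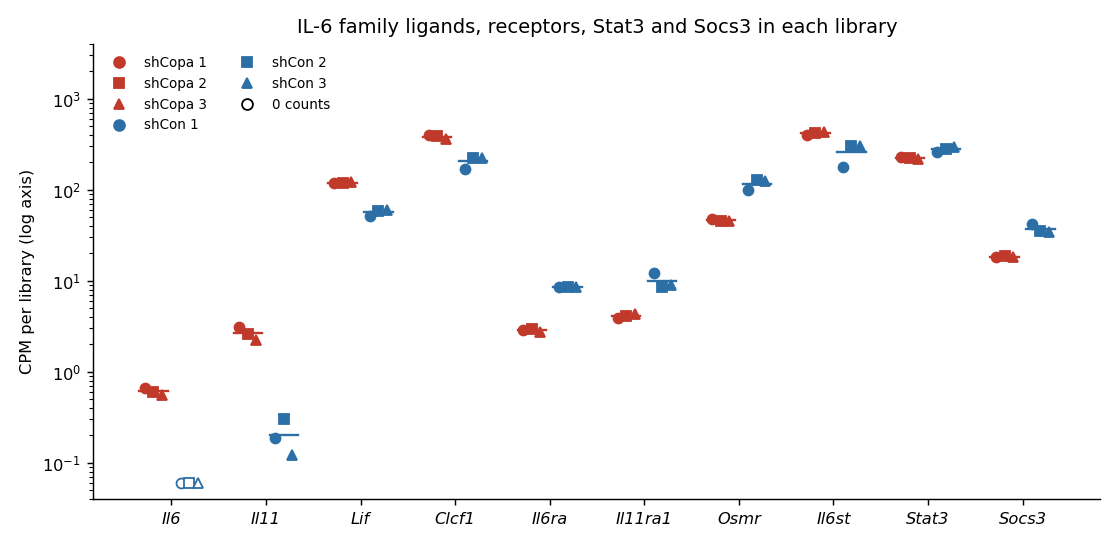
Level of IL-6 family ligand genes (Il6, Il11, Lif, Clcf1), receptor genes (Il6ra, Il11ra1, Osmr, Il6st), Stat3 and Socs3 in each library, as CPM on a log axis with shCopa left of shCon and group means as bars. The 4 ligand genes and Il6st are higher in shCopa, and the other genes are lower; open symbols mark 0 counts.

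Of 18 genes of interleukin-1, TNF and NF-kB signalling, 14 were tested, of which 6 rose, 1 fell and 7 did not pass, with a median log2 fold change of 0.18. Nfkbia, the inhibitor and target of NF-kB, rose to 69 ± 2.72 CPM in shCopa, against 22 ± 3.32 CPM in shCon (SD, n = 3 each; log2 fold change 1.65 ± 0.13, edgeR adjusted p = 0.000133). Il1rap, the shared chain of the interleukin-1 receptor, rose (1.46 ± 0.13, adjusted p = 0.000242), and Tnfrsf1a, a TNF receptor, fell (-0.73 ± 0.10, adjusted p = 0.00136). Nfkbiz, a nuclear partner of NF-kB that the Lcn2 gene needs for induction in mouse cells, did not pass (-0.01 ± 0.14, adjusted p = 0.964). The ligand genes Il1a, Il1b and Tnf had no more than 3 counts in any library.

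Of 20 genes of liver transcription factors, 16 were tested, of which 4 rose, 6 fell and 6 did not pass, with a median log2 fold change of -0.50. Cebpb stood at 6.82, 8.08 and 5.87 CPM in shCopa, against 81.2, 9.53 and 11.5 CPM in shCon. No shCopa value reached a shCon value, but the size rested on shCon 1, with a log2 fold change of -2.29 ± 0.81 that did not pass (edgeR adjusted p = 0.0622) and one of -0.60 without shCon 1 that did. It passed without shCon 2 (-2.74) or shCon 3 (-2.72) as well. Cebpd stood at 10.8, 10.5 and 8.19 CPM in shCopa, against 43.6, 16.5 and 17.9 CPM in shCon, and fell (-1.40 ± 0.38, adjusted p = 0.0239), with -0.81 without shCon 1 and the call lost without any 1 of the shCopa libraries (-1.47 to -1.29). Cebpa lay at the threshold (-1.29 ± 0.43, adjusted p = 0.05) and passed by a margin that most alternatives removed, among them leaving out shCon 1 (-0.82) or any 1 of the shCopa libraries (-1.48 to -1.02).

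The liver factor genes did not share 1 direction. Hnf4a, a nuclear receptor of hepatocytes, rose to 7.76 ± 1.24 CPM in shCopa, against 2.58 ± 0.935 CPM in shCon (SD, n = 3 each; log2 fold change 1.58 ± 0.28, edgeR adjusted p = 0.00422). Foxa1 and Foxa2, pioneer factors of liver genes, both fell (-1.06 ± 0.13, adjusted p = 0.000735, and -1.16 ± 0.15, adjusted p = 0.00125), as did Gata6 (-0.63 ± 0.09, adjusted p = 0.00175).

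Of 18 genes of receptors and partners of the 9 proteins, 15 were tested, of which 8 rose, 3 fell and 4 did not pass, with a median log2 fold change of 0.80. Hmox1, heme oxygenase 1, which breaks down the heme of haemoglobin carried by haptoglobin, rose to 604 ± 44.7 CPM in shCopa, against 136 ± 8.38 CPM in shCon (SD, n = 3 each; log2 fold change 2.15 ± 0.10, edgeR adjusted p = 3.32e-05). Itga5 (1.04 ± 0.08, adjusted p = 0.000157) and Icam1 (1.03 ± 0.09, adjusted p = 0.000263), genes of adhesion proteins that can bind fibrinogen or fibrin, both rose. Cd163, the haptoglobin receptor of macrophages, had no more than 4 counts in any library.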

How the data were processed

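RNA-seq of 6 libraries was used, 3 shCopa and 3 shCon, grouped by title. The deposited table gives estimated counts for each Ensembl identifier, of which 10.6% to 11.9% per library are not whole. Per the submitters' processing notes, the tools were HISAT2 2.0.5, Trimmomatic, featureCounts, HTSeq and DESeq2, on build GRCm39. The program behind the estimated counts, the strand setting and the annotation release were not given in the sources used here. Symbols and transcript lengths came from GENCODE M21 (GRCm38) by gene identifier, gene order from a RefSeq table, and promoter windows from RefSeq on GRCm38.p6, so no coordinates of the files' build are given. Symbols were found for 52081 of 55414 identifiers, and the rest held 0.201% to 0.464% of counts. For 67 symbols on more than 1 identifier, the one with the higher mean count was used.

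Estimated counts were rounded and fitted in R 4.3.3 with edgeR 4.0.16 (filterByExpr filter, TMM scaling, robust quasi-likelihood F test). Adjustment over all 14808 tested genes followed Benjamini and Hochberg, at 0.05. SEs were derived from the F statistic, and CPM from TMM-scaled library sizes. No pair of replicates agreed within sampling noise (chi-square per degree of freedom 4.34 to 85.9). Depth sets the floor, since 3 counts are 0.122 to 0.153 CPM in 1 library. The members and lists were chosen with earlier results of these data known. Genes named were all members, Copa, from each list up to 4 genes past the threshold, by adjusted p, a fixed set of regulators, receptors and plasma proteins, the nearest gene on each side of each member, and the 3 genes nearest to each member in pattern; others are named for their place, for the library pattern or because a list held few such genes, and some that meet this rule are not shown. The fit was tested on simulated data (14530 genes): 16.4% of 67 genes changed 1.5-fold, 73.1% of 67 changed 2-fold and 95.5% of 66 changed 4-fold were recovered, with 13 false calls among 136. That share of false calls is above 0.05. The changed genes were drawn from those averaging more than 1 CPM, so the rates do not cover Fga, Fgg and Lrg1. No simulated library was set apart as shCon 1 was. Alternatives were RLE and upper quartile scaling, a low-count filter of 1 CPM in 3 libraries or none, limma-voom 3.58.1, DESeq2 1.42.0, the replicate number as a block, offsets for GC content and transcript length, Kng1 and Kng2 summed, and each library left out. Sequence and figure steps used Python 3.11.15 with Biopython 1.88 and matplotlib 3.10.9.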

Additional observations from a re-analysis of the deposited data

How the results depend on the processing

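No result changed direction past the threshold. Genes past it numbered 5412 with all libraries and 3531 to 8453 with 1 library left out, the low end without shCopa 3 (3566 without shCopa 2) and the high end without shCon 1. Of the 9 genes, 7 or 8 passed under every alternative run except the filter of 1 CPM in 3 libraries, under which 4 passed, since only 6 genes were then tested. With 1 library left out, 7 to 8 of them passed, and of the lists 3 to 11 coagulation genes, 3 to 6 kinin genes, 10 to 15 other acute-phase genes, 22 to 35 regulators and 9 to 12 receptors and partners. Kinin genes past the threshold were 4, but 7 with no low-count filter and 7 by DESeq2, where more of them are tested. The ratio of Fgb to Fga per length in shCon was 12.5, 11.2 to 14.6 with 1 shCon library left out, and 30.3 per coding length. Shared replicate numbers did not pair the samples (correlations of deviations of -0.162, -0.0584 and -0.114), and with the replicate block 3903 genes passed, with 7 of the 9 genes, 4 coagulation, 3 kinin, 11 other acute-phase, 25 regulator and 11 receptor and partner genes. Over the genes followed, a call was lost in 103 pairs of gene and setting (22 genes) and gained in 57 (28 genes). Depth limits Fga, Fgg, Kng1 and Lrg1, whose levels in shCopa rest on 0 to 5 counts a library. The shCon spread rests much on shCon 1, and replicates may share a culture.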

Other observations

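Further genes of the lists of protein partners and of the acute phase were chosen after their values were seen. Mmp9, the matrix protease that forms a complex with lipocalin 2, stood at 1.42, 1.04 and 0.506 CPM in shCopa, against 0.0929, 0 and 0.0822 CPM in shCon, and rose (log2 fold change 3.98 ± 0.73, edgeR adjusted p = 0.00502). It passed the low-count filter only through its shCopa libraries, so this call is a description only. Lrp1, the endocytic receptor that takes up heme bound to hemopexin, had 26.4 ± 2.86 CPM in shCopa and 54.5 ± 14.1 CPM in shCon (SD, n = 3 each) and fell (-1.05 ± 0.20, edgeR adjusted p = 0.00602). Pigr, which carries antibodies across epithelia, had 0 counts in every shCopa library and 25 counts over the shCon libraries, at least 7.89-fold lower in shCopa when 3 counts are allowed for all shCopa libraries together, and was not tested.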
